A study of Sus scrofa with 16 samples.

Results

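The psoas major, a postural and hip-flexing loin muscle, was compared with the diaphragm, the main breathing muscle, in the pigs of the high feeding level. These gave 8 of the 16 arrays of the series, 4 of psoas and 4 of diaphragm, chosen by the feeding level in their titles and paired by animal number. The animals were Iberian pigs, a fat Mediterranean breed, all 211 days old at slaughter, and were 2 males (animals 1 and 4) and 2 females (animals 6 and 7). The other 8 arrays came from 4 Iberian pigs of the same age under 20% feed restriction (males 2 and 3, females 5 and 8), and are used here only to set the muscle difference beside that of other animals. All pigs had the same pelleted diet before the restriction. Castration of the males and the start of the restriction were not given in the sources used here. RNA of each muscle was hybridised to 1 Affymetrix porcine array, and 11130 of the 24123 probe sets (groups of probes for 1 transcript) had a log2 value of at least 4 in at least 4 of the 8 arrays. These were tested, after 124 control probe sets were left out, and they included 4489 named genes.

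Skeletal muscle is a mosaic of slow fibres, which burn fat and carbohydrate in mitochondria, and fast fibres, which contract more quickly and lean more on glycogen and phosphocreatine. The fibre types differ in their myosin heavy chains, troponins and calcium pumps. The diaphragm works with every breath and lies between the pleural and peritoneal linings, against the liver, whereas the psoas is attached to the lumbar spine. Muscles also keep a record of where in the body they formed, in HOX genes, which mark position along the body axis, and in the MEIS genes, whose products bind DNA together with HOX proteins.

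Both tissues had high levels of skeletal muscle transcripts, which do not tell the 2 muscles apart. CKM, the muscle creatine kinase, measured 15.11 to 15.20 in diaphragm and 15.08 to 15.24 in psoas, and TTN, the giant spring protein titin, 14.38 to 14.43 and 14.31 to 14.48. Median log2 values per array lay between 3.56 and 3.62 and the highest values between 15.7 and 15.9, so the most abundant muscle transcripts lay near the top of the scale. In a principal component analysis of the 8 arrays, the first component (37.4% of the variance) separated the muscles. As signs of RNA quality, the 3′ minus 5′ differences of control probe sets were compared. For actin, psoas was lower in 2 of 4 animals (mean difference -0.0941 on the log2 scale, two-sided exact permutation test by sign flips, p = 0.875). The diaphragm array of animal 1 had the highest actin value, 4.283, against 3.29 to 3.846 in the other 7 arrays. For EF1a, psoas was higher in 3 of 4 animals, by 0.273 on average (exact permutation p = 0.25). The psoas array of animal 7 had the highest EF1a value, 1.503, against 0.7473 to 1.082 in the other 7 arrays. For GAPDH the mean difference was -0.00303. With 4 pairs this test cannot go below 0.13.

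At high feeding 591 of 11130 probe sets, 5.31%, differed between the muscles at an adjusted p under 0.05 (limma with animal as a block, Benjamini-Hochberg adjustment). Of these 215 (1.93%) were higher in psoas and 376 (3.38%) higher in diaphragm, and all 591 had the same sign in 4 of 4 animals. Per gene, with 1 probe set each, 88 genes (1.96%) were higher in psoas and 148 (3.3%) higher in diaphragm. Counts of calls in the lists below stand against these shares. The smallest called difference was 0.495 on the log2 scale, where 1 is a 2-fold difference, and the median called difference was 0.898. The number of calls fell whichever animal was left out: 211 probe sets were called without animal 1, 58 without animal 4, 96 without animal 6 and 59 without animal 7. At an unadjusted limma p under 0.05 there were 2987 probe sets with all 4 animals, and 2140 to 2736 without 1 of them. The precision is limited by the number of arrays. Of the 65 called genes followed through these fits, 14 kept the call in all 4 of them: HOXA9, MYH2, ASNS, CNN1 and MEIS1 on the psoas side, and ALB, MEIS2, RYR3, TSPAN12, SH3KBP1, ABLIM1, DKK3, FIBIN and SKAP2 on the diaphragm side. The direction of the 65 genes could not change without 1 animal, since each had the same sign in 4 of 4 animals. For ALB, MEIS2 and RYR3 the direction was also fixed by the choice of probe sets, as their psoas values were all under 4. These fits used the same 11130 probe sets, so the kept calls of these genes add nothing on direction.

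**Figure D1:**
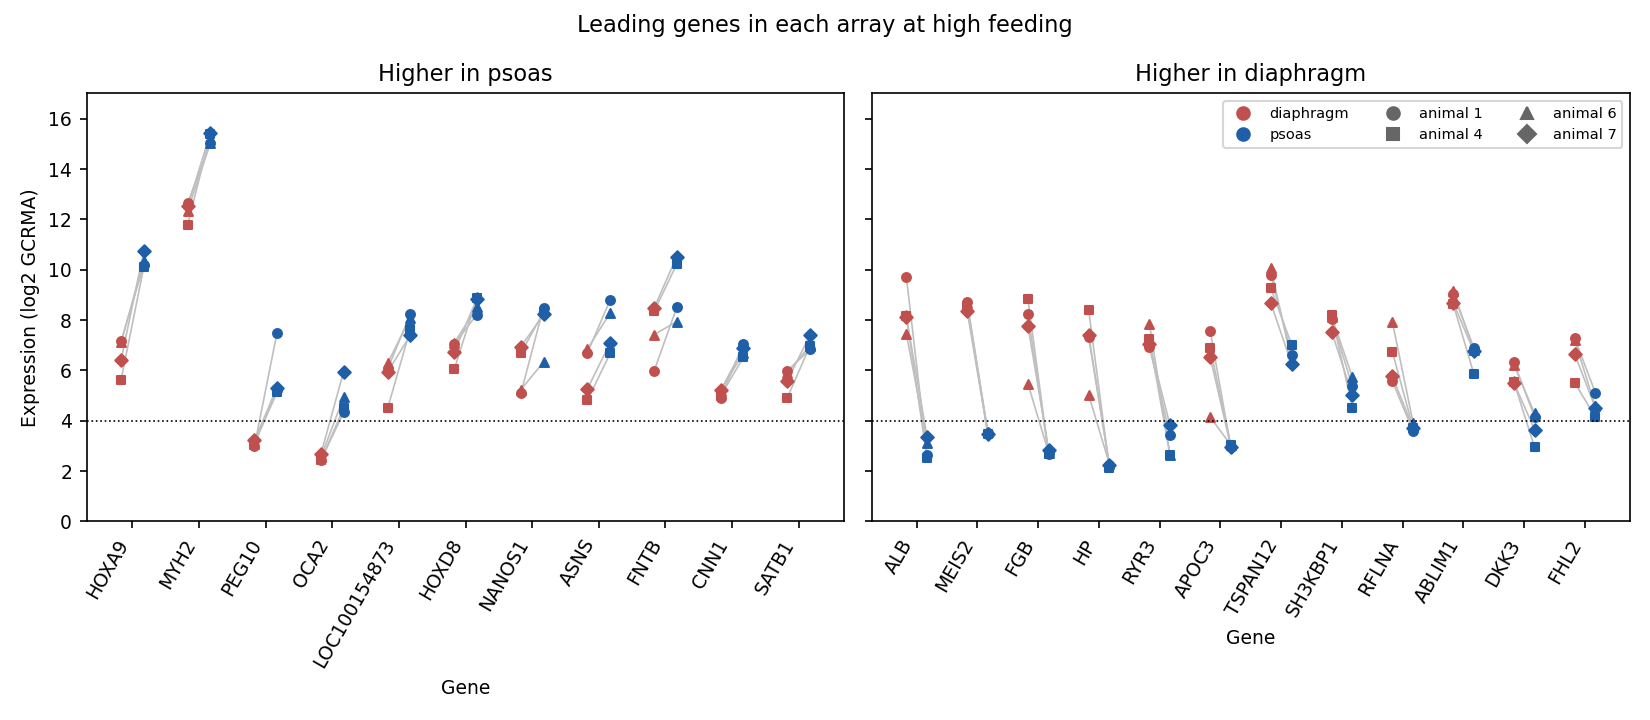
Log2 expression (y axis) of the leading genes in each of the 8 arrays at high feeding, with red for diaphragm, blue for psoas, 1 symbol shape per animal and a line joining the muscles of an animal; the dotted line is the value 4 used as the floor of measurement. ALB, MEIS2, FGB, HP, RYR3, APOC3 and RFLNA drop from above 4 in diaphragm to below 4 in every psoas array. NANOS1, ASNS and FNTB overlap between the muscles although each animal moves the same way.

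Genes of body position were called in both directions, by large amounts. HOXA9, a homeobox gene of the posterior body, measured 7.16, 5.62, 7.11 and 6.42 in the diaphragms of animals 1, 4, 6 and 7, in that order here and below, and 10.19, 10.10, 10.35 and 10.74 in their psoas. Every psoas array lay above every diaphragm array, and the difference was 3.77 ± 0.27 (log2 ± SE, n = 4 animals, adjusted p = 0.00407), or 13.6-fold. MEIS2 ran the other way, at 8.70, 8.54, 8.68 and 8.36 in diaphragm and 3.50, 3.49, 3.57 and 3.48 in psoas. All 4 psoas arrays lay below 4, so MEIS2 was at least 23.8-fold higher in diaphragm (measured means 8.57 and 3.51, adjusted p = 3.86e-05), and its other probe set also differed, by -2.84. Here "at least" sets the mean of the muscle with signal against a level of 4. A gene below 4 on every array of 1 muscle passed the filter through the other, so its direction was bound to be this one; that holds for MEIS2 and, below, for RYR3, RFLNA, PEG10, OCA2, ALB, FGB, HP and APOC3.

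Its relative MEIS1 was higher in psoas instead. MEIS1 measured 5.58, 4.95, 5.48 and 5.69 in diaphragm and 6.97, 6.61, 6.69 and 7.01 in psoas, with no overlap and a difference of 1.40 ± 0.12 (SE, adjusted p = 0.00631). HOXD8, another homeobox gene, measured 7.04, 6.04, 7.09 and 6.72 in diaphragm against 8.22, 8.87, 8.50 and 8.85 in psoas (difference 1.89 ± 0.28, adjusted p = 0.0243). It too did not overlap, but was not called without animal 4 (adjusted p = 0.0762), animal 6 (0.0591) or animal 7 (0.109). Of the 6 tested axial patterning genes 3 were called higher in psoas, as were 1.96% of all genes. In diaphragm 1 was higher, against 3.3% of all genes, and this was MEIS2, whose direction the filter had set. The median difference was 1.20 against 0.06 over all tested genes. The remaining members, the posterior HOXD10 (1.004, adjusted p = 0.114) and the anterior HOXA3 (-0.49, adjusted p = 0.127), did not pass. The psoas arrays of HOXD10 ran from 4.33 to 6.45, and the diaphragm arrays from 4.07 to 4.31. Groups of 4 arrays did not overlap in 13.5% of all tested genes.

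In the contractile apparatus a fast myosin stood out. MYH2, a myosin heavy chain of fast oxidative fibres, measured 12.66, 11.79, 12.35 and 12.51 in diaphragm and 15.02, 15.38, 15.04 and 15.43 in psoas. The muscles were far apart in all 4 animals, and the difference was 2.89 ± 0.20 (SE, adjusted p = 0.00388), or 7.40-fold, with the psoas values close to the top of the scale. It was the 1 gene called of 8 fast sarcomere genes, where 5.26% of all genes were called. Of the other 7, the thin-filament genes TPM1 (0.41, adjusted p = 0.0787), TNNI2 (0.40, 0.0987) and TNNT3 (0.37, 0.105) did not pass. The other TPM1 probe set gave -0.15 (0.536). The list median was 0.29, and 6 of 8 genes were above diaphragm in 4 of 4 animals, as were 23.4% of all tested genes (39.8% had the same sign in 4 of 4 animals, in either direction).

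None of the 8 slow sarcomere genes was called by limma (3 had an unadjusted p under 0.05, as had 26.8% of all tested probe sets), although 7 of them were lower in psoas in 4 of 4 animals, as were 16.4% of all tested genes. MYH7, the slow myosin heavy chain, measured 15.18, 15.13, 15.16 and 15.13 in diaphragm and 15.03, 14.77, 15.12 and 14.80 in psoas. The muscles differed little and did not pass (-0.22 ± 0.11, adjusted p = 0.265), and these values too lay at the top of the scale. TNNI1, the slow troponin I, was at -0.44 (adjusted p = 0.117) and the tropomyosin TPM3 at -0.59 (0.12), and the list median was -0.28. Among 19 genes of the Z-disc, titin and LIM proteins, 2 were higher in diaphragm, as were 3.3% of all genes. ABLIM1, an actin-binding LIM protein, measured 9.04, 8.64, 9.17 and 8.70 in diaphragm and 6.91, 5.87, 6.80 and 6.75 in psoas, a difference of -2.30 ± 0.16 (adjusted p = 0.00376), and its other probe sets gave -2.45 and -1.73, both called. FHL2, a LIM protein of heart and striated muscle, measured 7.28, 5.52, 7.21 and 6.65 against 5.12, 4.15, 4.57 and 4.52 (-2.08 ± 0.21, adjusted p = 0.00959), and was not called without animal 7 (adjusted p = 0.0549). Neither gene overlapped between the muscles.

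Calcium release and uptake held 1 call in each direction among 13 genes. Of all genes 1.96% were called higher in psoas and 3.3% higher in diaphragm. RYR3, a calcium release channel of the sarcoplasmic reticulum, measured 6.94, 7.25, 7.85 and 7.05 in diaphragm and 3.41, 2.62, 2.64 and 3.82 in psoas. No psoas array reached 4, so RYR3 was at least 9.67-fold higher in diaphragm (measured means 7.27 and 3.12, adjusted p = 0.00539). RYR1, skeletal muscle's main channel of this kind, was at 0.18 ± 0.10 (adjusted p = 0.314), with both muscles between 12.09 and 12.87. ATP2A1, the calcium pump of fast fibres, measured 11.52, 11.70, 12.25 and 12.08 in diaphragm and 12.29, 12.60, 12.76 and 13.23 in psoas (0.83 ± 0.14, adjusted p = 0.0302). Its psoas values were all the higher, but the call was lost without any 1 of the 4 animals (adjusted p from 0.0568 to 0.127), and its other probe set gave 0.89 (0.0776). ATP2A2, the slow pump (-0.32, adjusted p = 0.131, and -1.07 and -0.996 at its other probe sets, 0.0641 and 0.187), CASQ2, the calsequestrin of slow fibres and heart (-1.90, 0.0689), and S100A1, a calcium sensor (-1.20, 0.0573), did not pass.

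In energy metabolism single genes were called in several lists. PGAM2, the phosphoglycerate mutase of muscle, measured 13.59, 13.70, 13.75 and 13.78 in diaphragm and 14.14, 14.12, 14.33 and 14.46 in psoas (0.56 ± 0.11, adjusted p = 0.0423), without overlap. It was the 1 call among 15 glycolysis genes, where 5.26% of all genes were called. Of the 15, 10 were above diaphragm in 4 of 4 animals, as were 23.4% of all tested genes. The list median was 0.29. GPI (0.56, adjusted p = 0.0541), PGK1 (0.45, 0.0725) and PFKM (0.45, 0.0737), all enzymes of the same path, did not overlap but did not pass. LDHB, the lactate dehydrogenase subunit of oxidative fibres, was at -0.65 (0.099) and LDHA, that of fast fibres, at 0.20 (0.306).

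ADSSL1, the muscle adenylosuccinate synthase of the purine nucleotide cycle, measured 9.15, 10.69, 11.38 and 11.07 in diaphragm and 10.69, 11.65, 12.20 and 12.20 in psoas. Animal 1 was lowest in both muscles, so the groups overlapped while each animal was higher in psoas (1.12 ± 0.15, adjusted p = 0.0179). Another probe set for ADSSL1 gave 0.01 (adjusted p = 0.96). GAMT, which makes creatine, was higher in psoas by 0.78 ± 0.13 (0.0316), with 8.91 to 9.63 in diaphragm and 10.04 to 10.30 in psoas. AK3, the adenylate kinase of the mitochondrial matrix, was lower in psoas (-0.79 ± 0.13, adjusted p = 0.0313), with 10.85 to 11.32 against 10.22 to 10.38. These 3 were the calls among 8 phosphagen and adenylate genes, where 5.26% of all genes were called. Of 8 glycogen genes, PPP1R3B, a subunit that directs a phosphatase to glycogen, was called, and was lower in psoas (-0.86 ± 0.14, adjusted p = 0.0298). The calls of PGAM2, GAMT, AK3 and PPP1R3B were lost without any 1 of the 4 animals, with adjusted p from 0.0539 to 0.149. That of ADSSL1 was lost without animal 4 (0.0914), animal 6 (0.0522) or animal 7 (0.0945).

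Genes of mitochondrial respiration showed small differences and no calls. None of 33 complex I genes was called by limma (median difference -0.14), nor any of 9 genes of complexes III and IV (-0.18), 21 of ATP synthase and carriers (-0.09) or 25 of the tricarboxylic acid cycle (-0.07). COX6A1, a cytochrome oxidase subunit, was at -0.58 (adjusted p = 0.0636) and NDUFA1, a complex I subunit, at -0.31 (0.138). All 9 genes of complexes III and IV and 29 of the 33 of complex I had a difference below 0, as had 1914 of all 4489 tested genes. At an unadjusted p under 0.05 there were 3 complex I genes, 1 of complexes III and IV, 1 of ATP synthase and carriers and 4 of the cycle, against 26.8% of all tested probe sets. In complexes III and IV 4 genes and in complex I 5 genes were lower in psoas in 4 of 4 animals, as were 16.4% of all tested genes.

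Of 23 genes of fatty acid uptake and oxidation 2 were called, both higher in diaphragm, as were 3.3% of all genes. LPL, the lipase that frees fatty acids from blood lipoproteins, measured 11.58, 10.94, 11.88 and 11.29 in diaphragm and 10.77, 9.92, 11.32 and 10.09 in psoas (-0.90 ± 0.14, adjusted p = 0.0276). The other LPL probe set gave -1.15 (0.0644). ACADL, a long-chain acyl-CoA dehydrogenase, measured 11.22, 10.88, 10.87 and 10.56 against 10.61, 9.24, 10.24 and 8.99 (-1.11 ± 0.22, adjusted p = 0.0444). In both genes animals 4 and 7 had the lowest psoas values, and the groups overlapped. The list median was -0.29, and 22 of 23 genes had a difference below 0, as had 1914 of all 4489 tested genes. HADH (-0.43, adjusted p = 0.0886) and the fatty acid carrier FABP3 (-0.41, 0.0996) did not pass.

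Of 10 fuel switch genes 1 was called in each direction, and the list median was 0.27. Over all genes 1.96% were called higher in psoas and 3.3% higher in diaphragm, also for the lists below. ANGPTL4, a secreted inhibitor of LPL that fatty acids induce, was the clearer call. It measured 7.24, 6.19, 6.20 and 5.17 in diaphragm and 5.25, 4.46, 5.05 and 3.68 in psoas (-1.59 ± 0.16, adjusted p = 0.00959). Animal 1 was highest and animal 7 lowest in both muscles. PDK3, a kinase that holds back pyruvate dehydrogenase, was higher in psoas, with 5.02 to 5.85 in diaphragm and 6.25 to 6.57 in psoas (0.96 ± 0.16, adjusted p = 0.0298). UCP3, of the same list, did not pass at the probe set that stood for it (0.88, adjusted p = 0.115). It was called at its other probe set (1.36, 0.0298). FABP4, the fatty acid carrier of fat cells and of capillary endothelium, was the 1 call among 11 adipocyte and lipid synthesis genes, at 11.02, 10.67, 9.66 and 11.51 in diaphragm and 9.83, 9.47, 8.69 and 8.96 in psoas (-1.48 ± 0.27, adjusted p = 0.0379). The diaphragm of animal 6 lay below the psoas of animal 1. Among 10 cholesterol synthesis genes, CYP51, a sterol demethylase, was higher in psoas (0.86 ± 0.17, adjusted p = 0.0423), with 6.22 to 6.57 in diaphragm and 6.89 to 7.67 in psoas. The calls of LPL, ACADL, PDK3, FABP4 and CYP51 were lost without any 1 animal (adjusted p from 0.0523 to 0.152). ANGPTL4 was not called without animal 4 (0.0716) or animal 7 (0.0526).

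**Figure D2:**
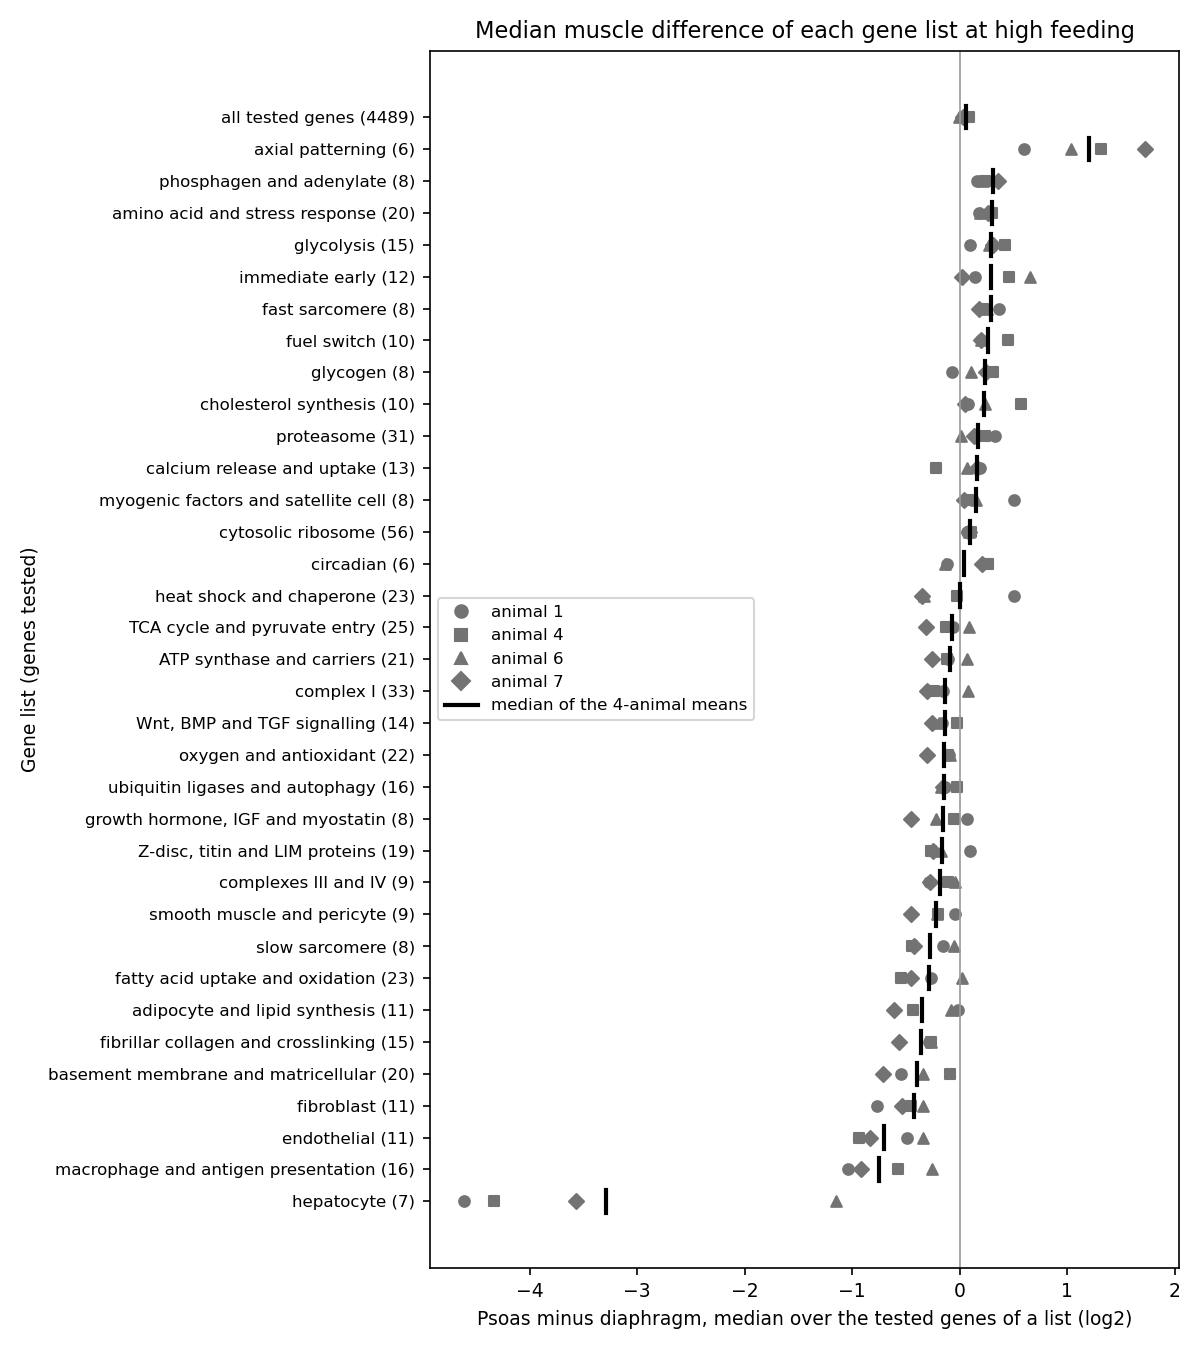
Median over the tested genes of each list of the psoas minus diaphragm difference (x axis, log2), with 1 symbol per animal and a bar for the median of the 4-animal means; lists with at least 6 tested genes are shown, with the number tested in brackets. The axial patterning list lies at 1.20. In the hepatocyte list 4 of the 7 genes passed the filter through diaphragm alone, which sets their direction. The endothelial and macrophage lists lie near -0.7, and the respiration lists lie close to 0.

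Of 14 genes of Wnt, BMP and TGF signalling 2 were called, both higher in diaphragm, as were 3.3% of all genes. The other 12 were not called, and the list median was -0.14. DKK3, a secreted member of the Dickkopf family, measured 6.32, 5.54, 6.23 and 5.51 in diaphragm and 4.16, 2.95, 4.29 and 3.65 in psoas (-2.14 ± 0.15, adjusted p = 0.00388). Animals 4 and 7 were the lower pair in both muscles, and 2 of the psoas arrays lay below 4. TSPAN12, a tetraspanin that aids Norrin signalling through a Frizzled receptor, measured 9.78, 9.27, 10.05 and 8.66 against 6.62, 7.02, 6.37 and 6.25 (-2.87 ± 0.25, adjusted p = 0.00679), or 7.32-fold. DKK2, a relative of DKK3, had the larger values in psoas, 8.67 to 11.07 against 7.45 to 8.48, but did not pass (1.63, adjusted p = 0.0637), and its other probe set gave -0.01. IGFBP5, which binds insulin-like growth factors, was the 1 call among 8 genes of growth hormone, IGF and myostatin, at 8.09, 6.72, 8.41 and 8.25 in diaphragm and 6.88, 5.43, 7.76 and 6.72 in psoas (-1.16 ± 0.16, adjusted p = 0.0213). Animal 4 was lowest in both muscles. The IGFBP5 call was lost without animal 1 (0.0603), animal 4 (0.107) or animal 7 (0.0945). MSTN, the growth inhibitor myostatin (0.74, adjusted p = 0.0935), and IGF2 (-0.67, 0.0605) did not pass.

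Among the other genes that led the psoas side were an imprinted gene and a pigment gene. PEG10, a retrotransposon-derived imprinted gene, was the 1 call among 8 myogenic genes, where 5.26% of all genes were called. It measured 2.98, 3.09, 3.06 and 3.22 in diaphragm and 7.49, 5.13, 5.35 and 5.30 in psoas. No diaphragm array reached 4, and the psoas of animal 1 stood above the rest, so PEG10 was at least 3.52-fold higher in psoas (measured means 3.09 and 5.82, adjusted p = 0.0276). It passed without animal 1 (0.00767) and did not pass without animal 4 (0.102), animal 6 (0.0709) or animal 7 (0.0945). OCA2, a transport protein of pigment granules, measured 2.44, 2.43, 2.56 and 2.69 in diaphragm and 4.33, 4.50, 4.93 and 5.95 in psoas. It was at least 1.90-fold higher in psoas (measured means 2.53 and 4.93, adjusted p = 0.00957), and was not called without animal 4 (0.056) or animal 6 (0.0503).

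CNN1, a calponin of smooth muscle, measured 4.91, 5.001, 5.20 and 5.21 in diaphragm and 7.06, 6.51, 6.70 and 6.90 in psoas (1.71 ± 0.15, adjusted p = 0.00631). It was the 1 smooth muscle and pericyte gene of 9 that was higher in psoas, while RGS5, a pericyte marker, was lower there (-0.87 ± 0.15, adjusted p = 0.0355), and the list median was -0.22. Over all genes 1.96% were called higher in psoas and 3.3% higher in diaphragm. The annotation gives no name for LOC100154873 (2.15 ± 0.27, adjusted p = 0.0155). NANOS1, an RNA-binding protein, measured 5.09, 6.68, 5.23 and 6.94 in diaphragm and 8.49, 8.31, 6.33 and 8.22 in psoas (1.86 ± 0.38, adjusted p = 0.0468), and the psoas of animal 6 lay within the diaphragm range. FNTB, a farnesyltransferase subunit, differed by 1.74 at this probe set and by 1.70 at its other (adjusted p = 0.0374 and 0.00959), with wide spread within each muscle. SATB1, an organiser of chromatin, was higher in psoas by 1.45 ± 0.22 (0.0271). Of these, NANOS1 and SATB1 passed without animal 1 (0.0273 and 0.0342), FNTB passed without animal 6 (0.029) and LOC100154873 without animal 1 or 4 (0.0482 and 0.0442). They were not called without the others (adjusted p from 0.05 to 0.151), and RGS5 was not called without any 1 animal (0.0534 to 0.135).

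On the diaphragm side, SH3KBP1, an adaptor protein of receptor uptake, measured 8.05, 8.22, 8.14 and 7.54 in diaphragm and 5.38, 4.52, 5.74 and 5.02 in psoas (-2.82 ± 0.23, adjusted p = 0.00539), or 7.08-fold. RFLNA, a partner of the actin-binding filamins, measured 5.57, 6.74, 7.92 and 5.76 against 3.59, 3.72, 3.92 and 3.72. It was below 4 in every psoas array and at least 5.65-fold higher in diaphragm (measured means 6.50 and 3.74, adjusted p = 0.0154). RFLNA was not called without animal 4 (0.10) or animal 7 (0.0549).

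Stress genes were called singly. ASNS, asparagine synthetase, which rises when amino acids run short, measured 6.70, 4.82, 6.86 and 5.27 in diaphragm and 8.79, 6.67, 8.28 and 7.09 in psoas. Animals 1 and 6 were high and animals 4 and 7 low in both muscles, so the groups overlapped while each animal was higher in psoas (1.80 ± 0.14, adjusted p = 0.00491). In the same list of 20 amino acid and stress genes, SAT1, which breaks down polyamines, was lower in psoas (-1.01 ± 0.14, adjusted p = 0.0194), and ATF4, a transcription factor of the amino acid response, did not pass (0.44, 0.106). Of 23 heat shock and chaperone genes, 2 were called, both higher in diaphragm, as were 3.3% of all genes. HSPA2, an HSP70 family chaperone, measured 5.73, 7.51, 6.87 and 6.14 in diaphragm against 4.99, 5.01, 3.94 and 4.53 in psoas (-1.94 ± 0.35, adjusted p = 0.0374). HSPB6, a small heat shock protein of muscle, measured 11.90, 12.66, 12.34 and 11.94 against 11.19, 10.43, 11.37 and 10.23 (-1.41 ± 0.26, 0.0379). Neither overlapped, and the list median was 0.01. SAT1, HSPA2 and HSPB6 kept the call without animal 1 only (0.0414, 0.0254 and 0.0481), and without another animal had adjusted p from 0.0574 to 0.143. CRYAB, alpha-B crystallin, disagreed between its probe sets, at -0.21 (0.736) where its level was near 13 and at 1.61 (0.0202) where its means were 5.16 and 6.77. None of 12 immediate early, 6 circadian, 22 oxygen and antioxidant, 31 proteasome, 16 ubiquitin ligase and autophagy or 56 cytosolic ribosome genes was called by limma at the 1 probe set that stood for each gene. FBXO32, a muscle ubiquitin ligase, was at -0.44 there (adjusted p = 0.153) and was called at its other probe set (-0.60, adjusted p = 0.0471). At an unadjusted p under 0.05 these lists held 4, 1, 7, 5, 6 and 4 genes, against 26.8% of all tested probe sets.

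Transcripts of 4 liver plasma proteins, ALB, FGB, HP and APOC3, lay above 4 in every diaphragm array and below 4 in every psoas array. ALB, albumin, measured 9.69, 8.14, 7.44 and 8.12 in diaphragm and 2.64, 2.50, 3.10 and 3.35 in psoas. With every psoas array below 4, ALB was at least 20.4-fold higher in diaphragm (measured means 8.35 and 2.90, adjusted p = 0.00491). FGB, the fibrinogen beta chain, measured 8.23, 8.83, 5.47 and 7.78 in diaphragm and 2.69 to 2.86 in psoas, at least 11.9-fold (measured means 7.57 and 2.75, adjusted p = 0.0109). HP, haptoglobin, measured 7.31, 8.40, 5.03 and 7.42 against 2.13 to 2.29, at least 8.22-fold (measured means 7.04 and 2.23, 0.0109). In FGB and HP, and in APOC3 below, the diaphragm of animal 6 was the lowest, while animal 1 was highest for ALB and animal 4 for FGB and HP.

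APOC3, an apolipoprotein, measured 7.56, 6.89, 4.15 and 6.54 in diaphragm and 2.95 to 3.04 in psoas, at least 4.87-fold (measured means 6.28 and 2.996, adjusted p = 0.0298). The apolipoproteins APOE (-1.35 ± 0.17, adjusted p = 0.0152) and APOA1 (-0.97 ± 0.15, 0.0281) were above 4 in both muscles and did not overlap. FGG, the fibrinogen gamma chain, measured 5.07, 7.20, 5.26 and 3.98 against 4.002, 2.87, 4.11 and 3.45 and did not pass (-1.77, 0.129). The array held 19 hepatocyte markers, of which 7 were tested and 6 called, but 4 of the 7 passed the filter through diaphragm alone, so that their direction was bound to be this one. The mean level over all 19 markers was 5.114, 4.675, 3.716 and 4.434 in diaphragm and 2.774 to 2.934 in psoas, and 7 of the 19 lay below 4 on all 8 arrays. All 6 mesothelial markers on the array, KRT8, KRT18, KRT19, WT1, CALB2 and UPK1B, also lay below 4 on every array. Where these transcripts came from was not tested. FGB and HP were not called without animal 4 (0.0716 and 0.0651) or animal 7 (0.0658 and 0.0659), nor APOE (0.0925 and 0.0834). APOC3 was called without animal 6 (0.0133) and not without animal 1, 4 or 7 (0.0722 to 0.129), and APOA1 was not called without any 1 animal (0.0581 to 0.115).

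**Figure D3:**
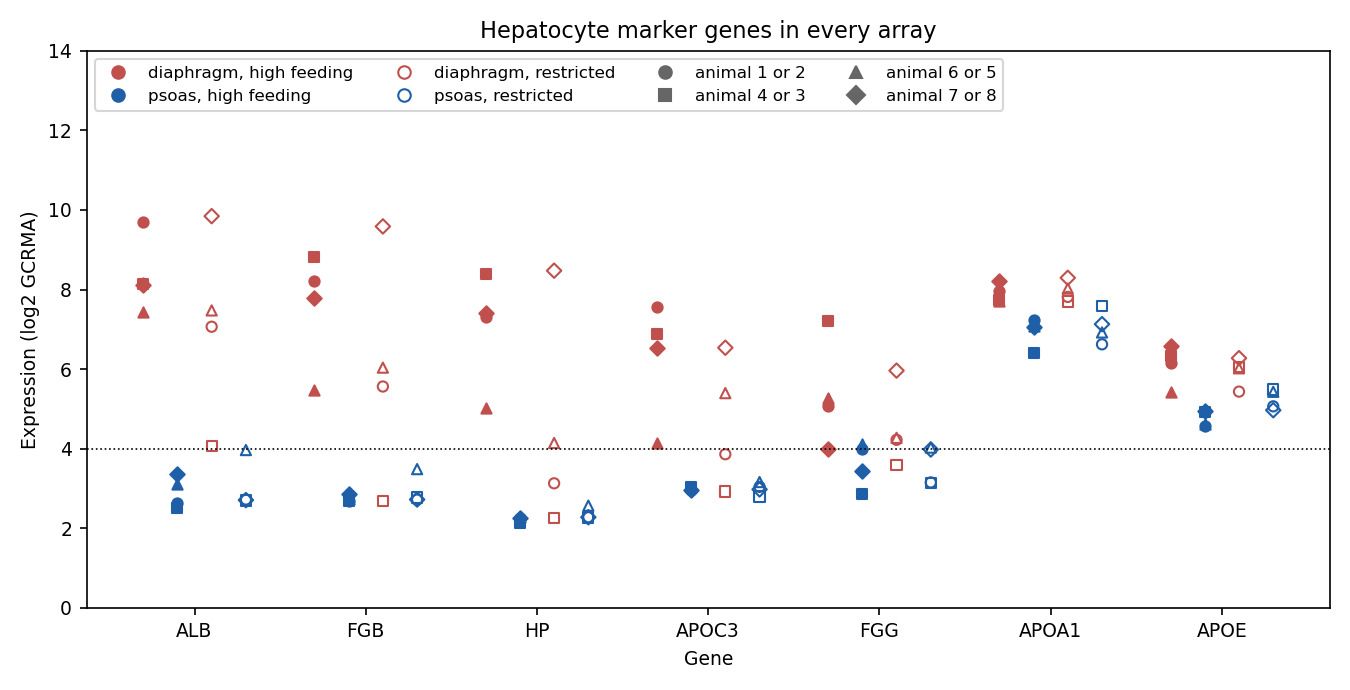
Log2 expression (y axis) of the 7 tested hepatocyte markers in all 16 arrays, with red for diaphragm, blue for psoas, filled symbols for high feeding and open symbols for restriction; the dotted line is the value 4. Every high feeding diaphragm array lies above 4 for ALB, FGB, HP and APOC3, and the restricted diaphragms spread from 4.07 to 9.84 for ALB.

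The same markers were read in the restricted animals. Diaphragm ALB measured 7.06, 4.07, 7.47 and 9.84 in animals 2, 3, 5 and 8, and HP 3.13, 2.25, 4.14 and 8.47, while psoas stayed below 4 on each array. For HP only animals 5 and 8 lay above 4. Under restriction the limma adjusted p of the muscle difference was 0.025 for ALB, 0.084 for FGB, 0.17 for HP and 0.078 for APOC3; no size is given, since every psoas array lay below 4. Whether these differences depended on feeding did not pass, with an unadjusted limma p of 0.23, 0.20, 0.062 and 0.094.

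Some markers of endothelium, of antigen-presenting cells and of connective tissue were called, all but TIMP2 lower in psoas. In whole muscle, fewer cells of a type and less RNA per cell cannot be told apart. Of 11 endothelial markers 3 were called, all higher in diaphragm, as were 3.3% of all genes. Lower in psoas in 4 of 4 animals were 10 of the 11, against 16.4% of all genes. The list median was -0.71. CDH5, the cadherin of endothelial junctions, measured 9.03, 8.74, 8.73 and 8.95 in diaphragm and 8.01, 7.66, 8.39 and 7.81 in psoas (-0.90 ± 0.16, adjusted p = 0.0379). The other CDH5 probe set gave -0.79 (0.143). RAMP2, a receptor partner for adrenomedullin, differed by -0.71 ± 0.13 (0.0389) and TEK, the angiopoietin receptor, by -0.64 ± 0.12 (0.0429). PECAM1 (-0.97, 0.0712) and VWF (-0.78, 0.0573), both endothelial, did not pass. Over all 16 endothelial markers on the array the mean level was 6.192 to 6.421 in diaphragm and 5.655 to 5.969 in psoas, without overlap, and 3 of the 16 lay below 4 on every array.

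Of 16 macrophage and antigen presentation markers 5 were called, all higher in diaphragm, as were 3.3% of all genes (list median -0.75). LAPTM5, a lysosomal protein of white blood cells, measured 7.96, 7.20, 6.71 and 7.33 in diaphragm and 6.73, 5.91, 6.21 and 5.77 in psoas (-1.14 ± 0.19, adjusted p = 0.0298). The MHC class II genes SLA-DRA (-1.02 ± 0.17, adjusted p = 0.0329), SLA-DQA1 (-1.12 ± 0.22, 0.0444), SLA-DRB1 (-0.93 ± 0.19, 0.0474) and SLA-DQB1 (-0.79 ± 0.16, 0.0441) present peptides to helper T cells. None of the 4 overlapped between the muscles, and being close relatives their probes may share signal. Their invariant chain CD74 was at -1.04 (0.0636). The mean of all 21 markers on the array was 5.651 to 6.472 in diaphragm and 5.202 to 5.687 in psoas, with animal 1 highest in both. Of 16 lymphocyte and mast cell markers 14 lay below 4 on all 8 arrays, T cell markers CD3D, CD3E and CD4 among them.

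In the matrix, 3 of 11 fibroblast markers, 1 of 15 fibrillar collagen and crosslinking genes and 2 of 20 basement membrane and matricellular genes were higher in diaphragm. Of all tested genes 3.3% were called in this direction. C3, the central complement protein, counted here with fibroblasts and made in liver too, measured 9.39, 9.76, 8.94 and 9.55 in diaphragm and 7.69, 8.10, 7.84 and 8.36 in psoas (-1.41 ± 0.15, adjusted p = 0.0106). The matrix proteins DPT (-0.80 ± 0.13, 0.0298) and PRELP (-0.65 ± 0.11, 0.0326) followed. LOX, which crosslinks collagen, measured 6.71, 5.29, 5.62 and 5.94 against 5.09, 4.56, 3.93 and 4.78 (-1.30 ± 0.18, adjusted p = 0.022). MMP2, a matrix protease (-0.75 ± 0.11, 0.0264), and FBN1, fibrillin of elastic tissue (-0.68 ± 0.11, 0.0302), were lower in psoas, while TIMP2, an inhibitor of matrix proteases, was higher there (0.80 ± 0.14, 0.0355), though its other probe set gave 0.09 (0.638). The fibrillar collagen COL3A1 was at 0.61 (0.0789) and DCN, decorin, at -0.57 (0.0675). The list medians were -0.43, -0.36 and -0.40. In the lists of vessels, antigen presentation and matrix, CDH5 and LAPTM5 kept the call without animal 6 only (0.0456 and 0.0421), and C3 kept it without animal 1 or 6 (0.0309 and 0.0436) but not without animal 4 (0.0716) or 7 (0.05). The other 12 named calls were lost without any 1 animal (adjusted p from 0.0503 to 0.16).

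The muscle difference was then set beside that of the 4 restricted animals, which share no array with it. On the same 11130 probe sets, 1949 (17.5%) were called under restriction, 1007 higher in psoas and 942 higher in diaphragm. Per gene these were 17.8%, with 9.31% higher in psoas and 8.47% in diaphragm. Of the calls at high feeding, 437 were called under restriction as well, all in the same direction, which is 73.9% of the high feeding calls and 22.4% of the restriction calls. Of all 591, 585 had the same sign under restriction. Of the 591, which were chosen at high feeding, 400 had the larger absolute difference there. HOXA9 (4.30), MYH2 (2.60), SKAP2 (-1.80, against -1.81) and ABLIM1 (-2.25) under restriction lay close to their values at high feeding. Others did not, such as FHL2, at -2.99 under restriction against -2.08. The number called under restriction fell to 254 without animal 2, to 497 without animal 3, to 590 without animal 5 and to 1522 without animal 8. The 6 of opposite sign included MGLL, a monoglyceride lipase (-0.70 against 0.10), and the CRYAB probe set above (1.61 against -0.72), which were named after their values were seen.

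**Figure D4:**
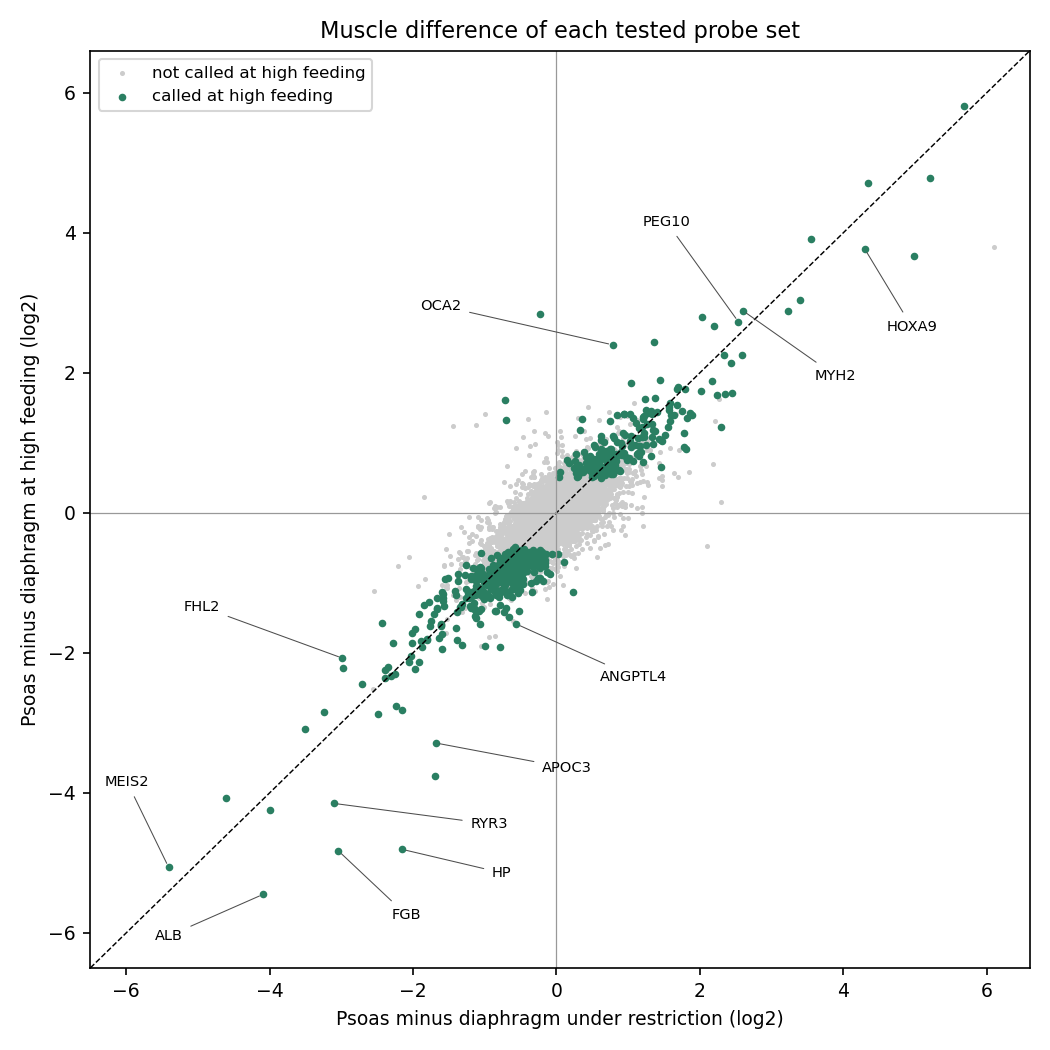
Psoas minus diaphragm difference (log2) of each of 11130 tested probe sets at high feeding (y axis) against restriction (x axis), with green for those called at high feeding and a dashed line of equality. Most green points lie near the line, HOXA9 among them, and ANGPTL4 lies farther from 0 at high feeding. HP, FGB, APOC3, ALB and OCA2 do too, but their positions rest on levels below 4 in 1 muscle or both.

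Whether the muscle difference depended on feeding was tested on the 8 animal differences. Of 11467 probe sets none was called by limma (lowest adjusted p = 0.28), and 611 had an unadjusted p under 0.05. The 6 genes of smallest p are therefore given as values, each at its probe set of smallest p. PLBD1, a lysosomal phospholipase-like protein, had psoas minus diaphragm differences of 0.29, -0.57, -0.12 and -0.37 at high feeding against a mean of 1.20 under restriction. CTH, an enzyme that makes cysteine, differed by 0.08 on average at high feeding and 1.19 under restriction. Neither gene was called at high feeding.

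OCA2 was the gene among them that was called at high feeding. Its psoas measured 3.07, 3.42, 3.28 and 3.44 in restricted animals, below 4 like all diaphragm arrays, against 4.33 to 5.95 at high feeding. ARID4A, a chromatin protein, differed by 0.38 against -0.48, while its probe set of higher mean gave -0.02 and 0.05. MLF1 differed by -0.33 against 0.58, and BTG2, an antiproliferative gene of the immediate early list, by 1.25 against -1.12. At high feeding the BTG2 differences ran from -0.13 in animal 7 to 2.13 in animal 1. FOS, a transcription factor of the same list, was at 1.24 at high feeding and -1.44 under restriction (adjusted p of dependence on feeding 0.75). ANGPTL4 was at -1.59 and -0.56 (adjusted p of dependence on feeding 0.73).

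**Figure D5:**
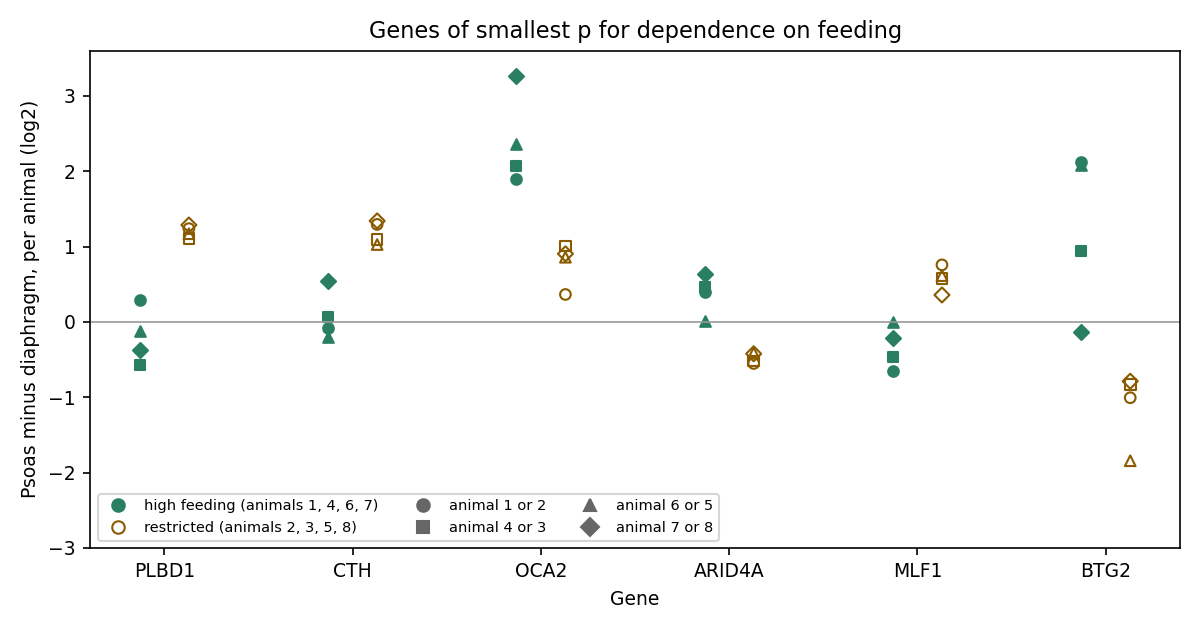
Psoas minus diaphragm difference of each animal (y axis, log2) for the 6 genes of smallest p in the test of dependence on feeding, with filled green symbols for high feeding and open brown symbols for restriction. The feeding levels do not overlap for any of the 6, which were chosen for this difference, and none passed adjustment over 11467 probe sets.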

How the data were processed

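The deposited log2 values, 1 per probe set and array, were made by the authors with GCRMA, per the submitters' processing notes. The GCRMA version and any joint treatment of the 16 arrays were not given in the sources used here. This method corrects background, equalises array distributions and summarises probes, so a shift shared by most genes is removed and differences near the bottom and top of the scale are compressed. No further scaling was applied.

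Gene symbols came from the platform annotation given with the table: 10099 probe sets had 1 symbol, 198 several and 13826 none, and those with several were not named. A gene with more than 1 tested probe set was represented by that of highest mean over the 8 arrays. Linear models (lmFit, eBayes) were fitted with limma 3.58.1 under R 4.3.3, with the animal as a fixed block and Benjamini-Hochberg adjustment over all tested probe sets. Every adjusted p is limma's, and a call is an adjusted p under 0.05. The scripts were tested on simulated data. Dependence on feeding was tested on animal differences of probe sets at or above 4 in at least 4 of 16 arrays.

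The animal numbers pair the arrays, since both muscles of a number came from 1 animal. Residuals of the 2 arrays of an animal correlated at 0.363 to 0.469, and those of different animals at -0.382 to 0.131. Each animal is 1 sample.

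The members and the 40 gene lists were chosen with earlier results of these data known. Genes were named by rule: the 12 largest called differences per direction, up to 6 called members per list and direction with defining members, the 6 smallest p for dependence on feeding and the 6 called genes of widest range between animals. SKAP2, FIBIN and MGLL were named after their values were seen. A gene that is withheld is not reported here. Alternatives changed the filter, scaling, block, probe set choice, variance model and animals used.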

Additional observations from a re-analysis of the deposited data

Results flagged for a closer look

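In 8 of 248 groups of 4 arrays looked at, 1 array stood apart from the other 3 of its muscle by more than Dixon's 95% critical value, where chance gives about 1 in 20. The ratio given is the gap to the nearest array over the range of the group. In psoas, PEG10 was high in animal 1 (7.489, nearest 5.352, ratio 0.906). NANOS1 was low in animal 6 (6.333, nearest 8.221, ratio 0.873), as was ABLIM1 in animal 4 (5.869, nearest 6.752, ratio 0.851). In the diaphragm of animal 7, CYP51 was high (6.566, nearest 6.273, ratio 0.845) and LDHB low (13.33, nearest 13.62, ratio 0.947). TPI1, a glycolysis enzyme, was high in the diaphragm of animal 6 (12.88, nearest 12.76, ratio 0.868). In the diaphragm of animal 1, SREBF2, a regulator of cholesterol synthesis, was low (4.499, nearest 5.141, ratio 0.952) and DCN high (12.91, nearest 12.26, ratio 0.957). The diaphragm array of animal 1 also had the highest 3′ minus 5′ actin value, and the part of this in its levels was not tested.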

How the results depend on the processing

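The count of 591 probe sets moved with the filter, the pairing and the samples. Without the replicate block 193 were called with sex as covariate and 173 with none, and 69 were called with no filter. Leaving out 1 animal gave 58 to 211 calls, and 1 fit of all 16 arrays gave 1672. The other settings gave 560 (at least 4 in all 8 arrays), 714 (at least 5 in 4 arrays), 815 (arrays centred on their median), 718 (quantile normalization), 742 (variance trend) and 583 (robust variance). The psoas share of calls was 36.4% and lay between 32.8% and 49.1% over all settings. Under restriction, leaving out 1 animal gave 254 to 1522 calls against 1949. Dependence on feeding gave 0 calls under every setting tried (449 to 944 at an unadjusted p under 0.05).

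No followed gene reversed, which for the called genes was bound to hold in the fits without 1 animal. Of 65 called genes followed, MEIS2, ABLIM1, DKK3, MEIS1 and SKAP2 kept the call in every fit, 24 lost it in all 4 fits without 1 animal, and 30 lost it without the block with sex as covariate. Of 55 genes not called, 29 were called in the fit of 16 arrays. Sizes below 4 are bounds, and 19 called probe sets lay below 4 on every psoas array and 10 on every diaphragm array.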

Other observations

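The called genes also held immune, complement and caveola genes, which were grouped after their values were seen and carry no test. Of 16 tested interferon response genes 8 were called, all higher in diaphragm, and 13 were lower in psoas in 4 of 4 animals (median difference -0.72). Of all tested genes 3.3% were called higher in diaphragm and 16.4% were lower in psoas in 4 of 4 animals. The 8 called were ISG12(A) (-1.41), UBD (-1.22), IFIT1 (-1.09), RSAD2 (-1.05), GBP2 (-1.02), GBP1 (-1.01), IFIT3 (-0.86) and IFI44L (-0.71). MX1, an antiviral GTPase, was at -0.44 (adjusted p = 0.0809) and IRF1 at -0.13 (0.60). Under restriction 8 of the 16 were called in the same direction, as were 8.47% of all genes, and the median was -0.56.

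Of 12 complement genes 5 were higher in diaphragm, as were 3.3% of all genes. The 5 were C3, C1S (-1.15) and C1R (-0.96) of the activating cascade, and its inhibitors SERPING1 (-0.84) and CD59 (-0.52). The MHC class I genes SLA-8 (-0.82), SLA-3 (-0.79) and SLA-6 (-0.77) were called out of 10 genes of class I and peptide loading, with PSMB8, an immunoproteasome subunit, at -0.57 (adjusted p = 0.0593). Class I genes are near-identical, so these probe sets may share signal. CAVIN2 (-0.80), CAV1 (-0.66) and CAV2 (-0.64), which form caveolae of endothelium and fat cells, were all 3 higher in diaphragm. They move with the endothelial markers above, whose part in this was not tested.

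Of the 591 calls 310 had no gene symbol. On the psoas side Ssc.13792.1.A1_at, below 4 on every diaphragm array, measured 2.14 in diaphragm and 7.95 in psoas, at least 15.5-fold (limma adjusted p = 2.5e-04), and Ssc.12652.1.A1_at 5.95 and 10.73 (4.79 ± 0.29, 0.00235). On the diaphragm side Ssc.26508.1.S1_at measured 14.55 and 10.30 (-4.25 ± 0.45, 0.0106). Ssc.26466.1.A1_at, below 4 on every psoas array, measured 6.74 and 2.67, at least 6.69-fold (6.7e-04). Under restriction Ssc.12652.1.A1_at differed by 5.20 and Ssc.26508.1.S1_at by -3.99. These were chosen after their values were seen.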
